A study of Mus musculus with 8 samples.

Results

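Brown adipose tissue burns fatty acids and glucose to make heat, and 36 genes of its carbohydrate handling were described here: glucose transporters, the enzymes of glycolysis, the enzymes that set fructose 2,6-bisphosphate, lactate dehydrogenases and lactate transporters, and the enzymes of glycogen storage. The genes were chosen by name as a pathway list, and all 36 of them were among the 54385 gene identifiers of the deposited table and among the 14553 genes tested. The series asks, by its title, how adenylyl cyclase 3 sets brown fat function. The cKO mice carried floxed alleles of Adcy3 on both chromosomes (Adcy3 fl/fl) together with a Cre recombinase driven by the adiponectin promoter (Adipoq-Cre), which acts in the adipocytes of all fat depots and there deletes part of Adcy3; the encoded cyclase turns ATP into cyclic AMP. The WT controls carried the same floxed alleles without the Cre. Both groups were C57BL/6N mice of 20 weeks on chow, and each group had 4 polyA RNA libraries of brown adipose tissue, which the sample labels call interscapular and the design text calls inguinal. WT replicate 4 is a control by its title, whereas its genotype entry carries the Cre, and it was kept as a control.

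Glycolysis splits glucose into pyruvate, which mitochondria oxidise or lactate dehydrogenase turns into lactate. Phosphofructokinase is its main control point and is switched on by fructose 2,6-bisphosphate, which the bifunctional PFKFB enzymes make and break down. Glycogen is the stored form of glucose: glycogen synthase lengthens the chains from UDP-glucose, and glycogen phosphorylase releases glucose 1-phosphate from them, a step that cyclic AMP promotes through protein kinase A and phosphorylase kinase. Most of these steps have isozymes from separate genes, and several of those genes (Pygm, Pgam2, Eno3 and Pfkm among them) are known as the skeletal muscle forms.

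None of the 36 genes passed an adjusted p of 0.05 between cKO and WT, against 10 of the 14553 genes tested (0.0687%; 0.0481% in the higher and 0.0206% in the lower direction). Unadjusted p-values under 0.05 were found for 4 members, 11.1% of the list, against 5.6% of all genes tested. Each of the 4 had its higher mean in cKO, where 2.15% of all genes tested lay at that level: the glycogen synthase isozyme Gys2, the UDP-glucose enzyme Ugp2, the bifunctional enzyme Pfkfb1 and the platelet-type phosphofructokinase Pfkp. The log2 fold change was above 0 in 25 of the 36 members, against 51.8% of all genes tested, with a median of 0.10 over the members and 0.01 over all genes tested. No member had groups without overlap, against 3.5% of all genes tested. DESeq2 and limma-voom also called 0 members, with 4 members at an unadjusted p under 0.05 in each. In the edgeR test that number was 2 without cKO replicate 2, where 3.72% of all genes tested lay at that level, and 7 without WT replicate 1, where 6.59% did. Values over the list are given for description, since its genes share pathways and libraries.

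**Figure D1:**
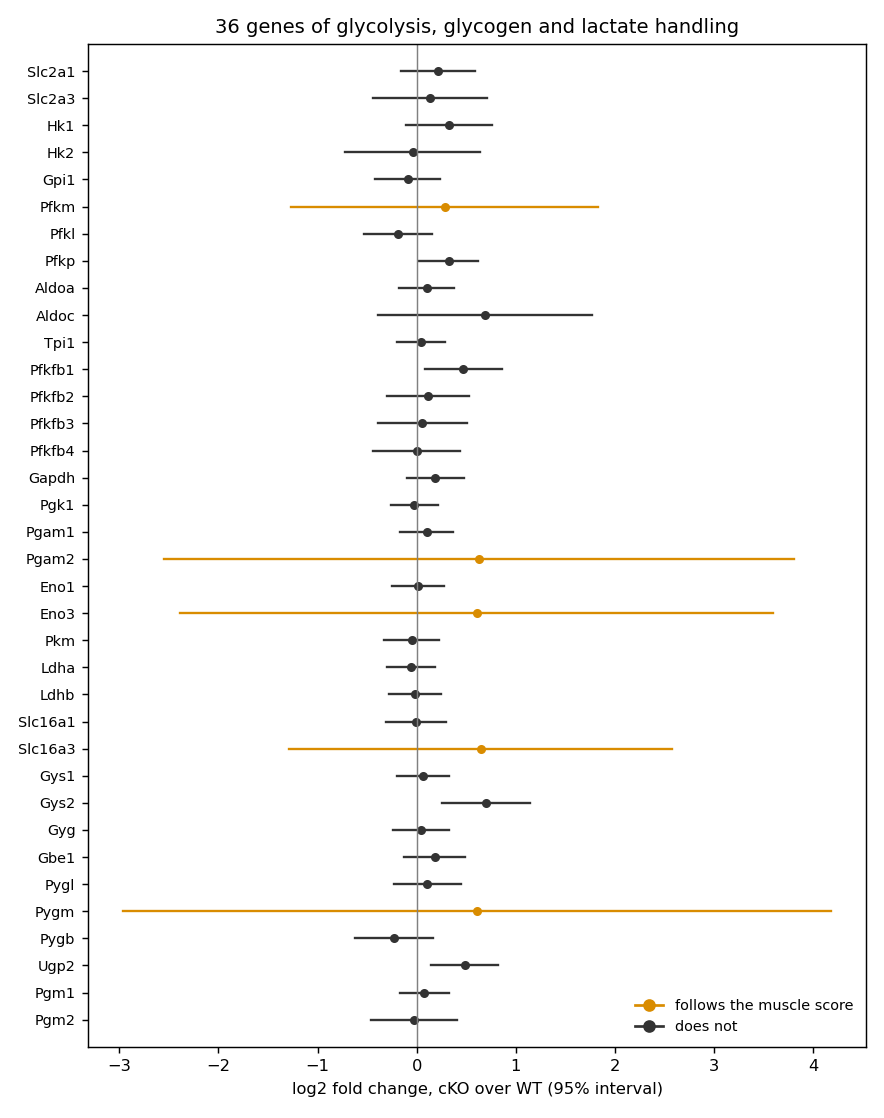
Log2 fold change of each of the 36 genes, cKO over WT, with its 95% interval from the edgeR fit on all genes, listed down the page by role. Intervals of Gys2, Ugp2, Pfkfb1 and Pfkp lie above 0, and the 5 genes in orange, whose levels follow the muscle score, have the widest intervals, Pygm from -2.96 to 4.18.

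The libraries held 10713043 to 32437214 estimated counts in total. Levels are given as CPM, counts scaled to the TMM-adjusted size of the library, and where 4 values stand for a group they are replicates 1 to 4 in that order. Adcy3 transcript stood at 17.95, 20.9, 25.3 and 21.5 CPM in the cKO libraries, against 112, 118, 61.7 and 118 CPM in the WT libraries, without overlap. Of 8 brown adipocyte markers, all were found in every library, with Ucp1 at 2233 CPM or more, and their summed CPM ran from 12960.4 to 19112 in cKO and from 15013 to 16754 in WT. Skeletal muscle RNA differed widely between the libraries of each group: the summed CPM of 14 contractile genes was 11248, 3323, 193 and 2513 in the cKO libraries, against 74.2, 2143, 445 and 8862 in the WT libraries. The highest library, cKO replicate 1, held 152 times the muscle RNA of the lowest, WT replicate 1. Each of the 14 markers had a log2 fold change above 0 (median 0.59), and none passed even an unadjusted p of 0.05. The 8 endothelial markers all had log2 fold changes below 0 (median -0.14), their summed CPM running from 516 to 621 in cKO and from 529.9 to 852 in WT, with WT replicate 3 the highest; 1 of them lay at an unadjusted p under 0.05, and the part of endothelial RNA in the members' values was not tested. Median log2 fold changes were -0.07 over 8 macrophage, -0.20 over 5 red blood cell and -0.06 over 5 Schwann cell markers. In whole tissue, fewer cells of a type and less RNA per cell cannot be told apart.

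Among the genes of glycogen storage, Gys2 and Ugp2 were the members with the smallest unadjusted p-values of the whole list. Gys2 (ENSMUSG00000030244, chr6:142422613-142473109, minus strand, GRCm38), known as the liver isozyme of glycogen synthase, had 54.3, 97.6, 88.7 and 90.5 CPM in the cKO libraries, against 68.1, 49.6, 42.2 and 44.0 CPM in the WT libraries. Of the 4 cKO libraries, 3 lay above every WT library, and cKO replicate 1 lay between WT replicates 1 and 2. The mean was 82.8 ± 19.3 CPM in cKO and 51.0 ± 11.8 CPM in WT (SD, n = 4 each), a log2 fold change of 0.70 ± 0.20 (SE, 95% interval 0.25 to 1.14), with an unadjusted p of 0.00570 and an edgeR adjusted p of 0.784. Against the mean log2 CPM of the muscle markers (the muscle score), Gys2 had a Pearson's r of -0.218 and a rho of -0.0238 over the 8 libraries (exact permutation p = 0.590 and 0.977, adjusted 0.764 and 0.977; r = 0.104 without the 2 farthest libraries). With both measures centred within their groups, r was -0.635, and an edgeR fit with group and muscle score gave Gys2 a slope of -0.08 log2 per unit of the score (95% interval -0.15 to -0.01, unadjusted p = 0.0372, adjusted p = 0.442). The lowest cKO library for Gys2, cKO replicate 1, held the most muscle RNA. The log2 fold change was 0.80 with the muscle score as a covariate (adjusted p = 0.342) and 0.79 without cKO replicate 1 and WT replicate 4, the libraries with the most muscle RNA (adjusted p = 0.242). In an edgeR fit without the filter on low counts Gys2 was called, at a log2 fold change of 0.68 and an adjusted p of 0.000313, the only setting in which any member was; 93 of 35502 genes were called there.

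Ugp2 (ENSMUSG00000001891, chr11:21321138-21371201, minus strand) makes the UDP-glucose that glycogen synthase uses. It had 274, 279, 214 and 247 CPM in the cKO libraries, against 226, 165, 135 and 198 CPM in the WT libraries. The groups overlapped, because cKO replicate 3 lay below WT replicate 1. The log2 fold change was 0.49 ± 0.16 (SE, 95% interval 0.15 to 0.82), with an unadjusted p of 0.00873 and an adjusted p of 0.858.

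**Figure D2:**
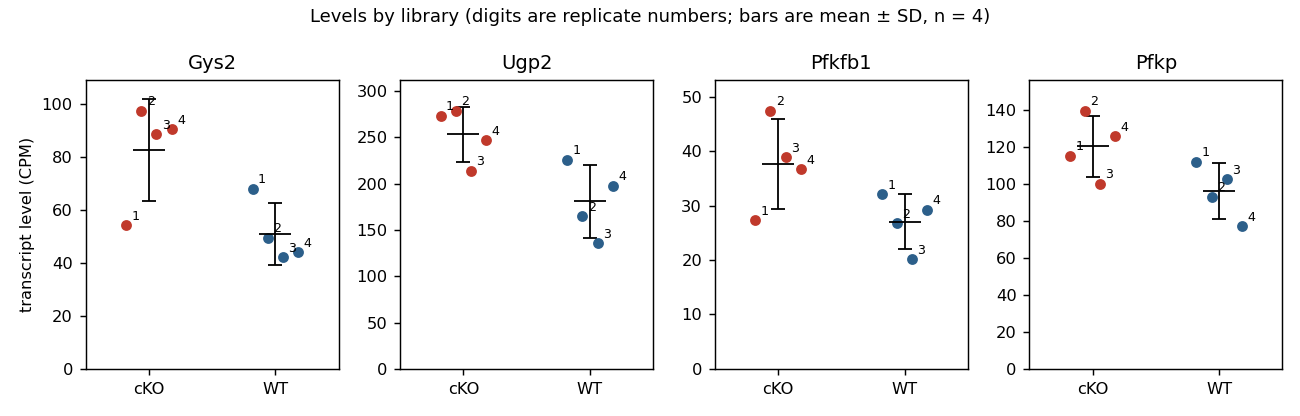
Levels in CPM (vertical axis, from 0) of the 4 genes at an unadjusted p under 0.05, with cKO at the left and WT at the right of each panel; points are libraries with their replicate number, and bars are the mean ± SD of 4. In each panel the groups overlap, through cKO replicate 1 for Gys2 and Pfkfb1 and through cKO replicate 3 for Ugp2 and Pfkp.

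The other glycogen genes had intervals that spanned 0. Gys1, the glycogen synthase isozyme of muscle and most other tissues, had 235, 237, 200.4 and 208 CPM in the cKO libraries, against 234, 215, 172 and 219.5 CPM in the WT libraries. Its log2 fold change was 0.07 (95% interval -0.19 to 0.33), and the 2 groups covered nearly the same range. Gyg, the self-glucosylating primer glycogenin, ranged over 90.9 to 135 CPM in cKO and 107 to 119 CPM in WT. Gbe1, the branching enzyme, ranged over 270.2 to 316 CPM in cKO and 188 to 307 CPM in WT, with a log2 fold change of 0.18 (95% interval -0.13 to 0.49). Pygl, known as the liver glycogen phosphorylase, had the highest level per length of the glycogen genes, with 785, 779, 741 and 716 CPM in the cKO libraries, against 959.9, 664, 560.4 and 622 CPM in the WT libraries. WT replicate 1 was the highest library for Pygl and the other 3 WT libraries were its lowest, so that the cKO values lay inside the WT range at a log2 fold change of 0.11 (95% interval -0.23 to 0.44). Pygb, the brain phosphorylase, ranged over 50.9 to 95.7 CPM in cKO and 67.2 to 94.1 CPM in WT, and its log2 fold change of -0.23 was the lowest of the list (95% interval -0.62 to 0.16, adjusted p = 0.901). Pgm1, the phosphoglucomutase that links glucose 1-phosphate to glycolysis (ENSMUSG00000025791, chr4:99929414-99987294, plus strand), had 304, 262, 253 and 239.6 CPM in the cKO libraries, against 276, 247, 223 and 258 CPM in the WT libraries. The related Pgm2 (ENSMUSG00000029171, chr5:64092950-64128351, plus strand) ranged over 4.00 to 6.03 CPM in cKO and 4.45 to 5.43 CPM in WT. The symbols Pgm1 and Pgm2 have been exchanged in mouse nomenclature, and the identifiers given fix which gene is meant.

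At the control point of glycolysis, Pfkfb1 and Pfkp had means above WT in the cKO libraries without passing the adjusted threshold. Pfkfb1 (ENSMUSG00000025271, chrX:150588229-150643878, plus strand), known as the liver PFKFB isozyme, had 27.3, 47.4, 38.9 and 36.7 CPM in the cKO libraries, against 32.1, 26.8, 20.1 and 29.2 CPM in the WT libraries. Of the cKO libraries, 3 lay above every WT library, and cKO replicate 1 lay inside the WT range. The log2 fold change was 0.47 ± 0.18 (SE, 95% interval 0.08 to 0.86), with an unadjusted p of 0.0214 and an adjusted p of 0.882. Pfkp (ENSMUSG00000021196, chr13:6579768-6648777, minus strand), the platelet phosphofructokinase, had 115, 139.6, 100.2 and 126 CPM in the cKO libraries, against 112, 93.2, 102 and 77.0 CPM in the WT libraries, and cKO replicate 3 lay below WT replicates 1 and 3. Its log2 fold change was 0.32 ± 0.14 (SE, 95% interval 0.02 to 0.62), with an unadjusted p of 0.0388 and an adjusted p of 0.883.

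The main phosphofructokinase and PFKFB isozymes of this tissue were others. Pfkl, the liver phosphofructokinase, had 651, 679.7, 701 and 609 CPM in the cKO libraries, against 979, 660.2, 803 and 562 CPM in the WT libraries, with a log2 fold change of -0.19 (95% interval -0.53 to 0.15). Pfkfb3, whose kinase activity far exceeds its phosphatase activity, had 513, 829, 548 and 554 CPM in the cKO libraries, against 643, 473, 454 and 784 CPM in the WT libraries. For Pfkfb3, cKO replicate 2 stood apart at 829 CPM, and WT replicate 4 was the next highest, so that the log2 fold change was 0.05 (95% interval -0.39 to 0.50). Pfkfb2, the heart isozyme, ranged over 5.65 to 10.2 CPM in cKO and 6.70 to 8.93 CPM in WT, and Pfkfb4, the testis isozyme, over 4.79 to 7.11 CPM in cKO and 4.43 to 7.47 CPM in WT.

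Glucose entry and the first steps gave no member at an unadjusted p under 0.05 apart from Pfkp. Hk2, the insulin-responsive hexokinase, had 460.0, 703, 630.2 and 609 CPM in the cKO libraries, against 1051, 433, 431 and 551 CPM in the WT libraries. WT replicate 1 stood above every other library for Hk2, and the interval of the log2 fold change of -0.04 was wide (-0.72 to 0.64). Hk1, the housekeeping hexokinase, ranged over 21.8 to 41.2 CPM in cKO and 20.5 to 32.3 CPM in WT, with a log2 fold change of 0.33 (95% interval -0.11 to 0.76). Of the glucose transporters, Slc2a1 (GLUT1) ranged over 5.62 to 7.49 CPM in cKO and 4.85 to 6.42 CPM in WT and Slc2a3 (GLUT3) over 2.30 to 4.82 CPM in cKO and 2.49 to 3.53 CPM in WT. Aldoa, the muscle-type aldolase that most tissues also express, had 4626, 3611, 4033 and 3672 CPM in the cKO libraries, against 4286, 3193, 3803 and 3604 CPM in the WT libraries. The groups lay over one another at a log2 fold change of 0.10 (95% interval -0.18 to 0.38). Gpi1, glucose 6-phosphate isomerase, ranged over 779 to 941 CPM in cKO and 722 to 1199.8 CPM in WT, and Tpi1, triose phosphate isomerase, over 311 to 375 CPM in cKO and 298 to 363 CPM in WT. Aldoc, the brain aldolase, was near the detection limit with 111 estimated counts over all 8 libraries; it ranged over 0.508 to 1.42 CPM in cKO and 0.302 to 1.15 CPM in WT, and its log2 fold change of 0.69 had an interval of -0.39 to 1.77.

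The abundant enzymes of lower glycolysis and of lactate were measured with narrow intervals. Eno1, the ubiquitous enolase, had 3052, 2884, 2985 and 2829 CPM in the cKO libraries, against 3411, 2625, 3074 and 2535 CPM in the WT libraries, and its log2 fold change was 0.01 (95% interval -0.25 to 0.28). Pgam1, the ubiquitous phosphoglycerate mutase, had 587, 729, 718 and 631 CPM in the cKO libraries, against 710.0, 578, 652 and 546 CPM in the WT libraries, at a log2 fold change of 0.10 (95% interval -0.17 to 0.37). These intervals leave out a difference of 0.5 log2 units in either direction for Eno1 and Pgam1. Pgk1, phosphoglycerate kinase, ranged over 423 to 531 CPM in cKO and 461 to 516 CPM in WT, and Pkm, which encodes both muscle-type pyruvate kinases by alternative splicing, over 1592 to 1945 CPM in cKO and 1558 to 2062 CPM in WT; the M1 and M2 forms were not told apart in a table of genes. Gapdh, the NADH-producing dehydrogenase of glycolysis, ranged over 1980.4 to 2396 CPM in cKO and 1605 to 2188 CPM in WT, with a log2 fold change of 0.19 (95% interval -0.10 to 0.48). Its level is uncertain, because 41 copies held 24.6% of the counts of Gapdh and its copies together. A copy was a gene with at least 50% of its 31-base sequences found in Gapdh. Most of the copies' 89670 estimated counts lay on Gm7336 (79165) and Gm12671 (9621). With the copies added the log2 fold change of Gapdh was 0.08.

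Ldha, the lactate dehydrogenase subunit that favours lactate formation, had 1144, 1179, 1108 and 1033 CPM in the cKO libraries, against 1223, 1057, 1294 and 1068 CPM in the WT libraries. Both groups covered about the same range, at a log2 fold change of -0.06 (95% interval -0.30 to 0.19). Ldhb, the subunit that favours pyruvate formation, ranged over 305 to 382 CPM in cKO and 305 to 401 CPM in WT, with a log2 fold change of -0.01 (95% interval -0.27 to 0.25). Slc16a1 (MCT1), a transporter of lactate and other monocarboxylates, had 222, 207, 171 and 188 CPM in the cKO libraries, against 242, 196, 159 and 196 CPM in the WT libraries, and its log2 fold change was -0.01 (95% interval -0.31 to 0.29).

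The levels of 5 members followed the amount of skeletal muscle RNA in the library, within cKO and within WT alike: Pygm, Pgam2, Eno3, Slc16a3 and Pfkm. The muscle score was the mean log2 CPM of the 14 contractile genes, none of them a member, and a member was said to follow it at a Pearson's r of at least 0.8 with an adjusted exact permutation p under 0.05 over the 36 members. Pygm (ENSMUSG00000032648, chr19:6384399-6398459, plus strand), the phosphorylase whose loss causes McArdle disease in humans, had 389, 114, 9.77 and 91.4 CPM in the cKO libraries, against 5.26, 70.4, 18.2 and 303 CPM in the WT libraries. Its order over the 8 libraries was that of the muscle score (r = 0.995, rho = 1, exact permutation p = 2.5e-05 for r and 5.0e-05 for rho, adjusted 0.000446 and 0.000893). For every 1000 CPM of summed muscle markers a library held 32.9 to 70.8 CPM of Pygm, although Pygm itself ranged over 73.9-fold. The same ratio ran from 6.28 to 23.1 for Pgam2, 20.9 to 106 for Eno3, 0.494 to 9.22 for Slc16a3 and 24.7 to 821 for Pfkm.

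Pgam2 (ENSMUSG00000020475, chr11:5801640-5803733, minus strand), the muscle phosphoglycerate mutase, had 81.8, 20.9, 3.36 and 17.0 CPM in the cKO libraries, against 1.71, 18.004, 5.07 and 56.4 CPM in the WT libraries (r = 0.991, rho = 0.976, exact permutation p = 5.0e-05 and 0.000397, adjusted 0.000595 and 0.00357). Eno3 (ENSMUSG00000060600, chr11:70657202-70662513, plus strand), the muscle enolase, had 251, 87.9, 11.4 and 53.6 CPM in the cKO libraries, against 7.90, 51.2, 23.0 and 185 CPM in the WT libraries (r = 0.986, rho = 1, exact permutation p = 2.5e-05 and 5.0e-05, adjusted 0.000446 and 0.000893). In both genes, cKO replicate 1 and WT replicate 4 were the highest libraries and WT replicate 1 the lowest. Slc16a3 (ENSMUSG00000025161, chr11:120948480-120960868, plus strand), the lactate exporter MCT4 of fast muscle, had 6.37, 2.70, 0.381 and 2.23 CPM in the cKO libraries, against 0.684, 1.43, 1.19 and 4.38 CPM in the WT libraries (r = 0.925, rho = 0.976, exact permutation p = 0.00114 and 0.000397, adjusted 0.0103 and 0.00357). Slc16a3 rested on 281 estimated counts over the 8 libraries. Pfkm (ENSMUSG00000033065, chr15:98092589-98132451, plus strand), the muscle phosphofructokinase, had 278, 115, 60.5 and 106 CPM in the cKO libraries, against 60.9, 112, 62.0 and 227 CPM in the WT libraries (r = 0.917, rho = 0.952, exact permutation p = 0.00156 and 0.00114, adjusted 0.0112 and 0.00821). Unlike Pygm, Pfkm levelled off at 60.5 to 62.0 CPM in the 3 libraries with the least muscle RNA, cKO replicate 3 and WT replicates 1 and 3.

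**Figure D3:**
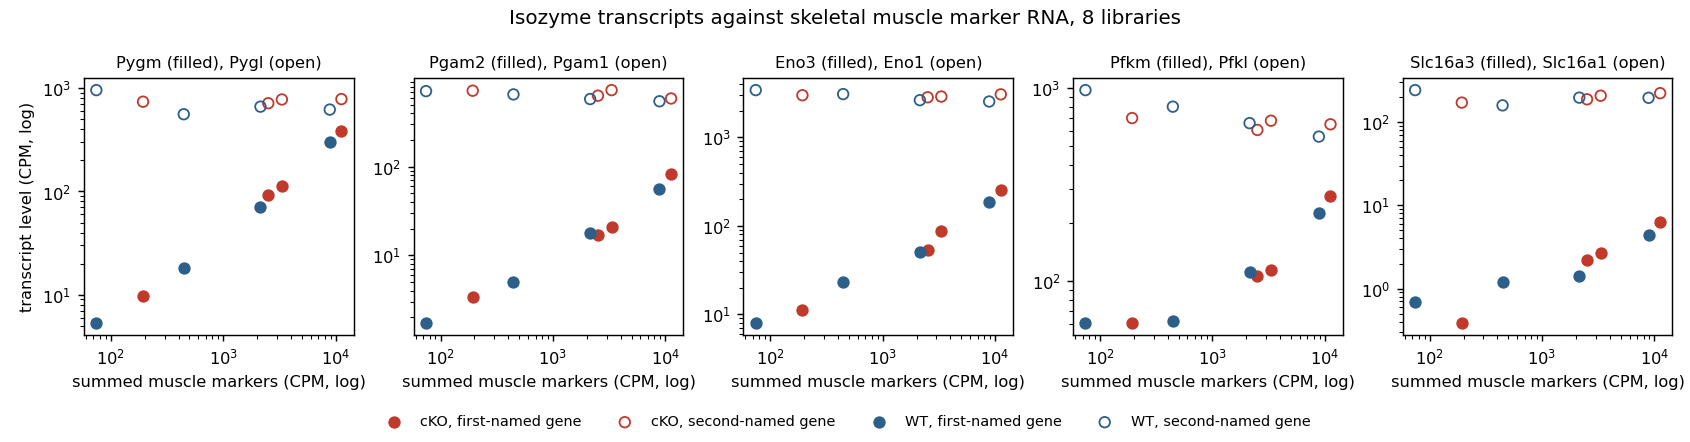
Level of each isozyme in CPM (vertical, log axis) against the summed CPM of 14 skeletal muscle markers (horizontal, log axis) in 8 libraries, cKO in red and WT in blue; filled points are the gene that follows the muscle score and open points the main isozyme of its family. The filled points climb with muscle RNA in both groups, Pygm over 73.9-fold, while the open points vary far less.

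The smallest p that 8 libraries can give for r is 2.5e-05. Without the 2 libraries farthest from the median score, WT replicate 1 and cKO replicate 3, r was 0.998 for Pygm, 0.991 for Pgam2, 0.980 for Eno3, 0.929 for Slc16a3 and 0.972 for Pfkm, and Slc16a3 then missed the adjusted threshold. With both measures centred within each group, r was 0.995 for Pygm and 0.926 for Slc16a3. The other 31 members had r from -0.85 to 0.67, with 17 of them below 0. Of these, Pfkl had an adjusted p under 0.05 for r, in the opposite direction (r = -0.848, exact permutation p = 0.00583, adjusted p = 0.035; rho = -0.81, exact permutation p = 0.0218, adjusted p = 0.131), and without the 2 farthest libraries its r was -0.788 (p = 0.0764). Without these libraries, r was 0.881 for Slc16a1, 0.870 for Pgm1, 0.857 for Gys1 and 0.820 for Gbe1. Their unadjusted exact permutation p-values were 0.025, 0.0333, 0.0222 and 0.0472. These were the only ones of the 31 to reach 0.8 there, and none passed the adjusted threshold. Over all 8 libraries their r was 0.079, 0.244, 0.305 and 0.207. An edgeR fit of the score over all genes, with the same score and libraries, called the 5 members that follow the score and no other member. The share of all genes called in that fit was not kept, so this count has no background to be read against.

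Between cKO and WT these 5 genes had log2 fold changes of 0.28 to 0.64, with standard errors of 0.64 to 1.47, where the other 31 members had a median standard error of 0.15. With the muscle score as a covariate the log2 fold changes were 0.02 for Pygm, -0.02 for Pgam2, -0.07 for Eno3, -0.07 for Slc16a3 and -0.10 for Pfkm. Of the 5, 4 took the other sign. These genes were picked by their relation to that same score in these libraries. A change of their values with the covariate largely follows from that choice and is no separate result. Over the other 31 members the median log2 fold change was 0.07, and 0.06 with the covariate.

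The RefSeq sequence before the start of 3 of these genes is shown because they are the members that tracked muscle RNA most closely. Each stretch is the 250 bases before the RefSeq start (GRCm38.p6), read 5′ to 3′ on the gene's strand. Capitals mark matches to CAGCTG, a form of the E-box that myogenic factors such as MyoD bind, or to the MEF2 consensus, both of which read the same on either strand.
Pygm (chr19:6384158-6384407, plus strand): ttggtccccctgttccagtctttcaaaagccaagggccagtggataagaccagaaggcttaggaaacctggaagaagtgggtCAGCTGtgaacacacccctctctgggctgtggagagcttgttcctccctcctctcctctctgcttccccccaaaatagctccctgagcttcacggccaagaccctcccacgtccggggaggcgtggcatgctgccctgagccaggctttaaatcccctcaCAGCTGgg
Pgam2 (chr11:5803797-5804046, minus strand): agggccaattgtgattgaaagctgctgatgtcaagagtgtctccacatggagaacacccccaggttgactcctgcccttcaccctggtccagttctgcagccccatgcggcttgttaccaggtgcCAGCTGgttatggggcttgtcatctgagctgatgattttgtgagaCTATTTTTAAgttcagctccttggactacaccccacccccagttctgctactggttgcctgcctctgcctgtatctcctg
Eno3 (chr11:70656926-70657175, plus strand): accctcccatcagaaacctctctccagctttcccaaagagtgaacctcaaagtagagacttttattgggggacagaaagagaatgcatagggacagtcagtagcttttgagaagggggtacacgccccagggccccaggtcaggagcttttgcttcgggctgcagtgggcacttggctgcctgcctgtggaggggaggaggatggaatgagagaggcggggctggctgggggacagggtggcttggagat
Pygm held CAGCTG at 2 places, starting 168 and 8 bases before the RefSeq start. The gene positions given above come from GENCODE, by which Pygm begins at chr19:6384399, so the nearer match lies inside the gene. For Pgam2 and Eno3 the GENCODE and RefSeq starts differ too. Pgam2 held CAGCTG 125 bases and a MEF2 match 80 bases before its start, and Eno3 held neither. Slc16a3 and Pfkm, which also follow the muscle score, held neither in any of their windows. Among all 32851 windows of 250 bases, 13% held CAGCTG and 2.92% a MEF2 match; a match describes the letters only. For the members, 34 of 36 genes had an entry, with 52 windows in all, since some genes have several starts. Of these windows, 8 held CAGCTG and 2 a MEF2 match. Members that do not follow the muscle score held 6 of the 8 and 1 of the 2. The letters ACGTG, the core of hypoxia response elements, were searched on both strands, CACGT being the reverse complement. They lay in 22 of the 52 windows (42.3%), against 16.6% of all windows. A match inside the longer CACGTG was counted too, so the letters do not single out hypoxia response elements. Counted by gene, 18 of 34 members held ACGTG on either strand in at least 1 window (52.9%), against 18.5% of all 27025 genes in the table. Base composition was not matched in these shares.

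Isozyme shares were computed from CPM per kilobase of the longest coding transcript. Of 28 member shares tested in cKO against WT, none passed an adjusted or an unadjusted exact permutation p of 0.05. With 4 against 4 libraries the smallest possible p is 0.0286. An adjusted p under 0.05 over 28 shares would need many shares at that smallest p, so the adjusted result decides little. Without cKO replicate 1, 3 shares lay under an unadjusted p of 0.05, without WT replicate 1 there were 2 and without WT replicate 2 there was 1, none of them past the adjusted threshold. The share of Gys2 in glycogen synthase was 24.3, 36.3, 38.0 and 37.6% in the cKO libraries, against 28.7, 24.2, 25.4 and 21.7% in the WT libraries, with Gys1 holding the rest. As with its level, cKO replicates 2 to 4 lay above every WT library and cKO replicate 1 did not. The mean share differed by 9.01 percentage points (34.03 ± 6.55% in cKO and 25.0 ± 2.92% in WT, SD, n = 4 each, two-sided exact permutation p = 0.0857, adjusted p = 0.4). The share of Pfkfb1 in the PFKFB family was 11.6, 12.6, 15.1 and 14.1% in the cKO libraries, against 11.1, 12.3, 9.88 and 8.54% in the WT libraries, a difference of 2.88 points (exact permutation p = 0.0571, adjusted p = 0.4). The share of Pfkp in phosphofructokinase was 9.31, 13.2, 10.4 and 13.2% in the cKO libraries, against 8.71, 9.43, 9.45 and 7.49% in the WT libraries, a difference of 2.74 points (exact permutation p = 0.0857, adjusted p = 0.4). Besides Gys1, 2 further shares were lower in cKO at that same p and adjusted p. Pfkfb3 averaged 84.2% in cKO and 87.0% in WT (-2.80 points), and Pygb 5.73% in cKO and 7.58% in WT (-1.85 points).

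**Figure D4:**
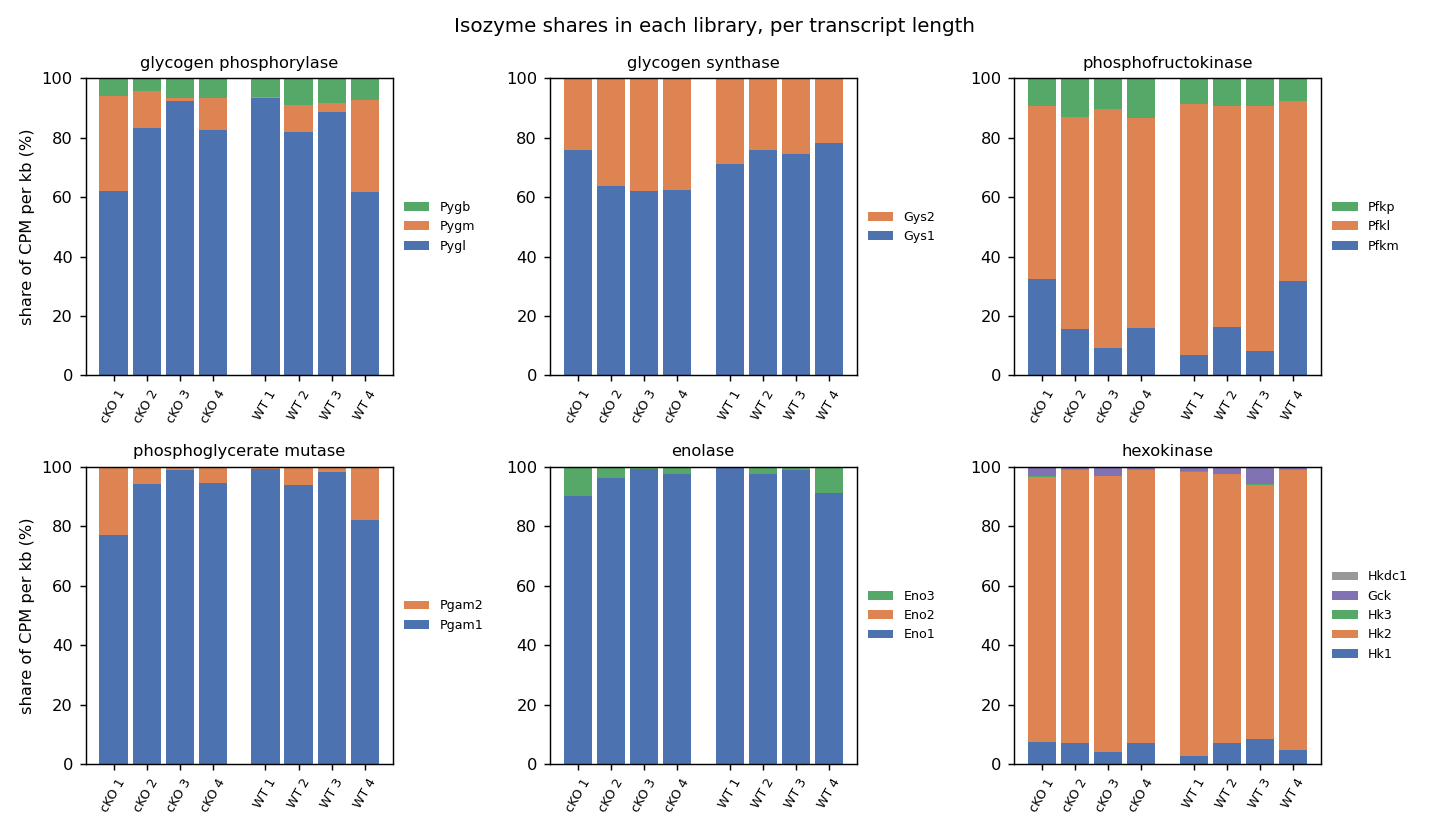
Share of each isozyme in its family (vertical axis, percent of the summed CPM per kilobase) in every library, cKO replicates at the left and WT replicates at the right. The shares of Pygm, Pgam2, Eno3 and Pfkm are largest in cKO replicate 1 and WT replicate 4, and the share of Gys2 is 36.3% or more in cKO replicates 2 to 4.

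The muscle isozymes moved their families' shares from library to library within both groups. Pygm made up 32.03, 12.6, 1.27 and 10.97% in the cKO libraries, against 0.532, 9.07, 3.01 and 31.2% in the WT libraries of glycogen phosphorylase. Pgam2 made up 22.8, 5.70, 0.980 and 5.38% in the cKO libraries, against 0.506, 6.17, 1.61 and 17.9% in the WT libraries of phosphoglycerate mutase. Its share and that of Pygm were highest in cKO replicate 1 and WT replicate 4. Pfkm made up 32.3, 15.6, 9.02 and 16.001% in the cKO libraries, against 6.81, 16.3, 8.23 and 31.8% in the WT libraries of phosphofructokinase. Eno3 made up 9.64, 3.80, 0.491 and 2.40% in the cKO libraries, against 0.299, 2.46, 0.962 and 8.63% in the WT libraries of enolase. Slc16a3 made up at most 2.73% of the monocarboxylate transporters listed, in cKO replicate 1. Exact permutation p-values of the differences were 0.571 for Pygm, 0.686 for Pgam2, 0.6 for Pfkm, 0.6 for Eno3 and 0.543 for Slc16a3, each with an adjusted p of 0.954.

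The main isozyme of each family kept its place in every library. Slc2a4 (GLUT4), the insulin-responsive glucose transporter, which is not among the 36 genes, made up 97.8 to 98.9% of the transporters GLUT1 to GLUT4. Hk2 made up 85.6 to 95.7% of hexokinase, Pfkl 58.4 to 84.5% of phosphofructokinase and Pfkfb3 82.8 to 89.4% of the PFKFB family. Aldoa made up over 99.5% of aldolase, Pgam1 77.2 to 99.5% of phosphoglycerate mutase and Eno1 90.3 to 99.7% of enolase. Pygl made up 61.6 to 93.3% of glycogen phosphorylase, Gys1 62.0 to 78.3% of glycogen synthase and Pgm1 97.5 to 98.6% of the 2 phosphoglucomutases. Ldha made up 68.2 to 72.9% of lactate dehydrogenase, with Ldhb at 27.1 to 31.7%. Slc16a1 made up 92.7 to 97.3% of the monocarboxylate transporters.

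Per length, the order of levels ran from Aldoa to Aldoc. In CPM per kilobase, Aldoa averaged 2573 ± 301 in cKO and 2402 ± 293 in WT (SD, n = 4 each here and below). Eno1 averaged 1449 ± 49.3 in cKO and 1436 ± 201 in WT and Gapdh 1526 ± 133 in cKO and 1339 ± 207 in WT, levels that do not differ beyond their spread. Next came Pkm at 716 ± 60.9 in cKO and 741 ± 106 in WT and Ldha at 615 ± 34.4 in cKO and 639 ± 64.4 in WT. A middle group of Ldhb, Pgk1 and Pygl, at 243 to 267 CPM per kilobase over all 8 libraries, could not be ordered within its spread. Of the first enzymes of the pathway, Gpi1 had means above this group, at 302 ± 23.5 in cKO and 322 ± 71.1 in WT. Means below it were those of Pfkl, at 177 ± 10.7 in cKO and 201 ± 48.6 in WT, and Hk2, at 109 ± 18.5 in cKO and 112 ± 53.5 in WT. In WT the spread of Gpi1 and of Pfkl reached into the values of the group, so their places are by mean only. Gys2, at 31.1 ± 7.28 in cKO and 19.2 ± 4.45 in WT, stood near Pfkp at 29.0 ± 4.02 in cKO and 23.2 ± 3.60 in WT. The lowest were Slc2a3, Slc16a3 and Aldoc, each under 1 CPM per kilobase on average. Pgk1, Pgam1, Pkm and Ldhb share 54.7%, 37.1%, 34.7% and 33.0% of their 31-base sequences with other genes, so their levels depend on how the counting divided reads. Eno1 and Gapdh share 28.5% and 27.2%. For Pgk1, Pgam1, Pkm and Ldhb, the genes counted as copies held 0.009% or less of the counts of gene and copies together.

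**Figure D5:**
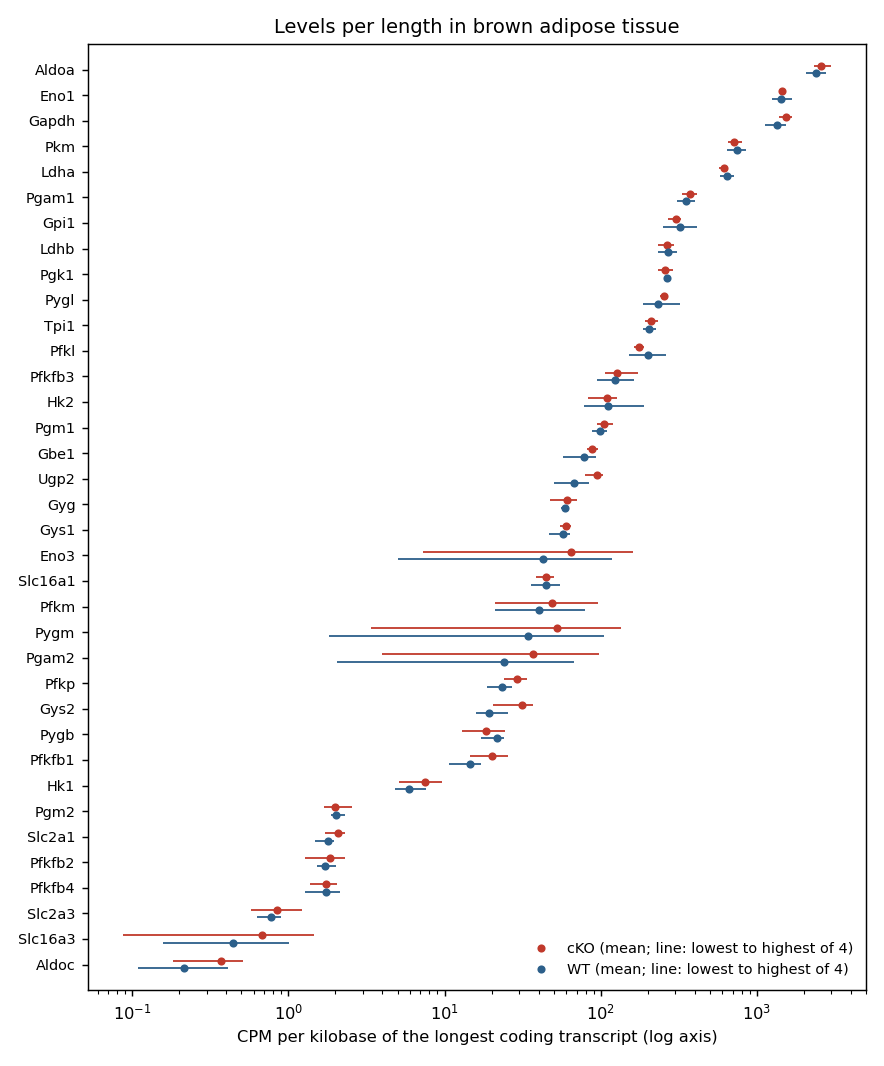
Level of each of the 36 genes in CPM per kilobase of the longest coding transcript (horizontal, log axis), ordered by the mean over 8 libraries; points are group means, cKO in red above WT in blue, and lines run from the lowest to the highest of 4 libraries. Lines of both groups are longest for Pygm, Pgam2, Eno3 and Slc16a3, and most other members have group means close together.

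Of 47 further pathway genes, 41 were tested; none was called and none lay at an unadjusted p under 0.05, with 30 log2 fold changes above 0 and 11 below (median 0.12). The most abundant was Ppp1r3b, a subunit that brings protein phosphatase 1 to glycogen, with 411, 698, 563 and 600.1 CPM in the cKO libraries, against 693, 432, 306 and 427 CPM in the WT libraries (log2 fold change 0.29, 95% interval -0.26 to 0.84). Slc2a4 had 427, 507, 505 and 500.5 CPM in the cKO libraries, against 526, 365, 351 and 376 CPM in the WT libraries, at a log2 fold change of 0.26 (95% interval -0.04 to 0.57). The cKO values of Slc2a4 lay within 427 to 507 CPM, inside the WT range because WT replicate 1 held 526 CPM. Ppp1r3a, the muscle counterpart of Ppp1r3b, was picked after its values were seen and had 40.2, 12.1, 0.254 and 6.46 CPM in the cKO libraries, against 0.0622, 4.43, 0.546 and 26.4 CPM in the WT libraries, with the highest values again in cKO replicate 1 and WT replicate 4.

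Of 13 regulators of glycolysis, none was called and 3 lay at an unadjusted p under 0.05 (23.1% of the list, against 5.6% of all genes tested), all of them prolyl hydroxylases that mark hypoxia-inducible factors for degradation. Egln1 had 235, 246, 209 and 222 CPM in the cKO libraries, against 190.3, 187, 189 and 195 CPM in the WT libraries, without overlap, at a log2 fold change of 0.26 ± 0.10 (SE, unadjusted p = 0.0207, adjusted p = 0.882). Egln2 had 49.9, 41.4, 46.3 and 37.6 CPM in the cKO libraries, against 50.6, 53.7, 67.3 and 56.8 CPM in the WT libraries, without overlap in the other direction, at a log2 fold change of -0.38 ± 0.12 (SE, unadjusted p = 0.00948, adjusted p = 0.867). Egln3 had 19.1, 17.8, 8.06 and 14.7 CPM in the cKO libraries, against 11.8, 8.72, 9.64 and 10.3 CPM in the WT libraries, with overlap, at a log2 fold change of 0.55 ± 0.23 (SE, unadjusted p = 0.0352, adjusted p = 0.882). Over all genes tested, every cKO library lay above every WT library in 1.23% and below in 2.27%. The most abundant regulators were Txnip, an arrestin that restrains glucose uptake, with 819, 458, 476 and 642 CPM in the cKO libraries, against 369, 598, 784 and 742 CPM in the WT libraries, and Epas1, a hypoxia-inducible factor, with 556, 509.9, 419.7 and 562 CPM in the cKO libraries, against 499, 553, 517 and 454 CPM in the WT libraries. Their log2 fold changes were -0.06 (95% interval -0.65 to 0.53) and 0.02 (95% interval -0.25 to 0.28).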

How the data were processed

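The authors deposited 1 table of estimated counts per Ensembl gene (expected counts, not normalized), in which reads that fit several transcripts are split between them by estimate; Salmon, StringTie and edgeR are named with GRCm38 in the submitters' processing notes, and versions, annotation release and strand setting were not given in the sources used here. Per the labels' protocols, the kit was NEBNext Ultra II RNA and reads were paired-end. The labels do not say that libraries came from separate animals, and the p-values then cover the spread among libraries, which may be technical. No pair of libraries within a group agreed within sampling noise (chi-square per degree of freedom at least 14.5).

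Estimated counts were rounded and fitted on the whole table with edgeR 4.0.16 (R 4.3.3): filterByExpr, which left 14553 genes, TMM scaling, the robust quasi-likelihood test with group as the only term, and Benjamini-Hochberg adjustment over all genes tested at 0.05. Log2 CPM carried a prior count of 2. Shares and relations to the muscle score used two-sided exact permutation tests. GENCODE M21 (GRCm38) gave symbols, positions and lengths for 99.5% of identifiers, and RefSeq (GRCm38.p6) the sequences. Aldoa is listed under 2 identifiers, and ENSMUSG00000030695 was used. Members, lists and tests were chosen with earlier results of these data known. Per-library values go to members with a call, an unadjusted p under 0.05, groups without overlap, a level that follows the muscle score, or the highest level per length of their family; of other genes, to those at an unadjusted p under 0.05 and the 2 most abundant of each list.

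Alternatives were DESeq2 1.42.0 and its size factors, limma-voom (limma 3.58.1), leaving out each library, and a block for replicate number. Others were WT replicate 4 counted as cKO, no filter, or at least 1 CPM in 4 libraries, and the muscle score as a covariate. Copies, genes with at least 50% of their 31-base sequences in a member, were also summed, and other transcript lengths were used. The test was tried on simulated data.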

Additional observations from a re-analysis of the deposited data

Results flagged for a closer look

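Among 72 groups of 4 levels and 56 groups of 4 shares, 6 held a library whose gap to the nearest other exceeded Dixon's 95% limit for 4 values, taken relative to the range of the group; chance alone flags about 5% of groups. For levels, Pfkfb3 stood at 829 CPM in cKO replicate 2, where the nearest cKO library held 554 CPM. For shares, Gys2 stood at 24.3% and its counterpart Gys1 at 75.7% of glycogen synthase in cKO replicate 1, against 36.3% and 63.7% in the nearest cKO library; this library also held the most muscle RNA, whose part in the result was not tested. Slc2a1 stood at 0.706% of the glucose transporters in WT replicate 1, against 1.26% in the nearest WT library. Hk1 stood at 4.14% of hexokinase in cKO replicate 3, against 6.97%. Pfkfb4 stood at 1.69% of the PFKFB family in WT replicate 3, against 1.17%.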

How the results depend on the processing

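Depth was lowest for Aldoc, with 54 estimated counts in cKO and 57 in WT, and then for Slc16a3, with 157 in cKO and 124 in WT. Of 611 member fold changes recomputed under 17 alternatives, 549 kept their direction and their side of the threshold, 61 changed sign and 1 passed the threshold, that of Gys2 without a filter on low counts (log2 fold change 0.68, adjusted p 0.000313), the single member called there; the cause was not tested. No other alternative called a member, and Gys2, Ugp2, Pfkfb1 and Pfkp kept their sign in all of them.

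The replicate numbers did not pair the libraries: deviations of same-numbered libraries correlated at -0.464 to 0.409. With the replicate block 2 members lay at an unadjusted p under 0.05 in place of 4, and 904 of all 14553 genes in place of 815; Hk2 came to 0.0643, Pfkfb4 to 0.0049 and Slc16a1 to 0.0012 on the log2 scale. Leaving out 1 library at a time, 2 to 7 members lay at an unadjusted p under 0.05, 0 were called, 5 followed the muscle score and 0 to 3 shares lay at an unadjusted exact permutation p under 0.05; the count was 2 without cKO replicate 2 (3.72% of all genes) and 7 without WT replicate 1 (6.59%), and 3 shares came without cKO replicate 1. That count of shares was 1 with the median transcript length and 1 with no length correction, against 0. Chosen after seeing the data, leaving out cKO replicate 1 and WT replicate 4 together left 3 members at an unadjusted p under 0.05 and none called. The share of all genes at that level was not kept for this fit, so the count of 3 has no background.

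Signs changed in values near 0 or in genes that follow muscle RNA. With WT replicate 4 moved to cKO the log2 fold change was -0.0821 for Eno1, -0.0062 for Gyg, -0.0043 for Pgam1, -0.0123 for Slc2a3 and 0.18 for Pfkfb4. With the muscle score as a covariate it was -0.0745 for Eno3, -0.0968 for Pfkm, -0.0192 for Pgam2, -0.0717 for Slc16a3, 0.0103 for Gpi1, 0.0338 for Ldhb, 0.14 for Hk2 and 0.0073 for Pgm2. limma-voom gave 0.0624 for Hk2, 0.025 for Pfkfb4 and 0.0037 for Slc16a1, DESeq2 gave 0.0060 for Pfkfb4, DESeq2 size factors 0.0027 for Pfkfb4, and no filter -0.0054 for Eno1. Leaving out each library in turn, log2 fold changes that changed sign ran over Eno1 -0.0397 to 0.0979, Eno3 -0.38 to 1.91, Gpi1 -0.19 to 0.0568, Gyg -0.0276 to 0.15, Gys1 -0.013 to 0.12, Hk2 -0.17 to 0.35, Ldha -0.0875 to 0.0036, Ldhb -0.0646 to 0.0583, Pfkfb2 -0.00488 to 0.26, Pfkfb3 -0.13 to 0.23, Pfkfb4 -0.11 to 0.12, Pfkm -0.29 to 0.85, Pgam2 -0.54 to 1.96, Pgk1 -0.0738 to 0.0275, Pgm2 -0.18 to 0.0494, Pkm -0.10 to 0.0215, Pygm -0.46 to 2.29, Slc16a1 -0.0977 to 0.10, Slc16a3 -0.0993 to 1.44, Slc2a3 -0.097 to 0.27 and Tpi1 -0.00538 to 0.0952. Share differences in percentage points ran over Eno3 -0.86 to 2.84, Pfkm -2.23 to 7.79, Pgam2 -2.53 to 5.94, Pygm -2.67 to 10.02 and Slc16a3 -0.0792 to 0.77. Apart from muscle RNA, whose values stand beside the results, the cause was not tested.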
